A study of Mus musculus with 9 samples.

Results

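Among 9 arrays of C1498 cells, 4 arrays deviated from their own groups in the same way, although they came from all 3 groups. The 4 arrays were the one titled SCR #8, the one titled ZEB C #12, and those titled ZEB D #14 and #15. The other 5 arrays were SCR #7 and #9, ZEB C #10 and #11, and ZEB D #13. The sets were chosen from the measured values, by the sign of each array's deviation after the mean of its group had been subtracted from every gene. The deviation is therefore a description, and no p-value is given for it.

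C1498 cells are an established line of acute myeloid leukaemia from the mouse. All 3 groups were infected with lentivirus carrying green fluorescent protein, and the GFP-positive cells were sorted and their RNA hybridised to 1-colour arrays. The groups differed in the construct, a negative control (Scr, arrays 7 to 9), hairpin sequence C against Zeb1 (shZeb1_C, arrays 10 to 12) or hairpin sequence D against Zeb1 (shZeb1_D, arrays 13 to 15). Whether a group's arrays stand for separate infections is not stated, and the labels name no batch. P-values between groups thus reflect only sample-to-sample spread, part of which may be technical. Values are log2 signals, on which a difference of 1 is a 2-fold difference.

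Proliferating leukaemia cells run glycolysis, mitochondrial respiration, ribosome building and DNA replication as large programmes whose genes tend to move together. Mitochondria carry their own ribosomes, whose protein subunits are encoded in the nucleus, and the respiratory chain is assembled from subunits made by both genomes.

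Each gene was given 3 within-group differences, namely Scr 8 minus the mean of Scr 7 and 9, shZeb1_C 12 minus the mean of shZeb1_C 10 and 11, and the mean of shZeb1_D 14 and 15 minus shZeb1_D 13. The worded contrast of the 4 arrays against the 5 equals 0.90 times the mean of these 3. A gene was counted as sharing the deviation when all 3 had the same sign, the smallest was at least 1, and the higher side of each group exceeded 7.07, the median over the whole array. Of 19572 named probe sets 522 did so, which is 2.67%. The 4 arrays were higher for 193 of them (0.986%) and lower for 329 (1.68%). Without array 8 or 12 only 2 groups are left to agree, and the counts were 292 and 590 without array 8 and 320 and 417 without array 12. At the threshold, Ppcs was just inside with a smallest difference of 1.000 and Acyp2 just outside with 0.995, while on the lower side Capn1 was inside, with a largest difference of -1.46 and its smallest at the threshold, and Adar outside with -0.995.

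The differences ran together over the whole array and not only in these genes. Across the 19572 named probe sets, Pearson's r was 0.59 between the differences in Scr and shZeb1_C, 0.63 between Scr and shZeb1_D, and 0.63 between shZeb1_C and shZeb1_D. Over the 9867 probe sets above the median level it was 0.71, 0.75 and 0.74. These are correlations across genes, which are not independent replicates, and the choice of the sets fixes their sign. No array enters more than 1 of the 3 differences. The first principal component of the within-group residuals held 57.9% of their variance and the second 11.3%.

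A difference of at least 1 was found for 1238 probe sets in Scr (6.33%), 1799 in shZeb1_C (9.19%) and 1810 in shZeb1_D (9.25%). The 522 genes make up 42.2%, 29% and 28.8% of them. Past that size, 674 genes had the same direction in Scr and shZeb1_C and 9 the opposite one. The counts were 742 against 3 for Scr and shZeb1_D, and 896 against 6 for shZeb1_C and shZeb1_D. The sets were chosen from these values, which favours the same direction.

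**Figure D1:**
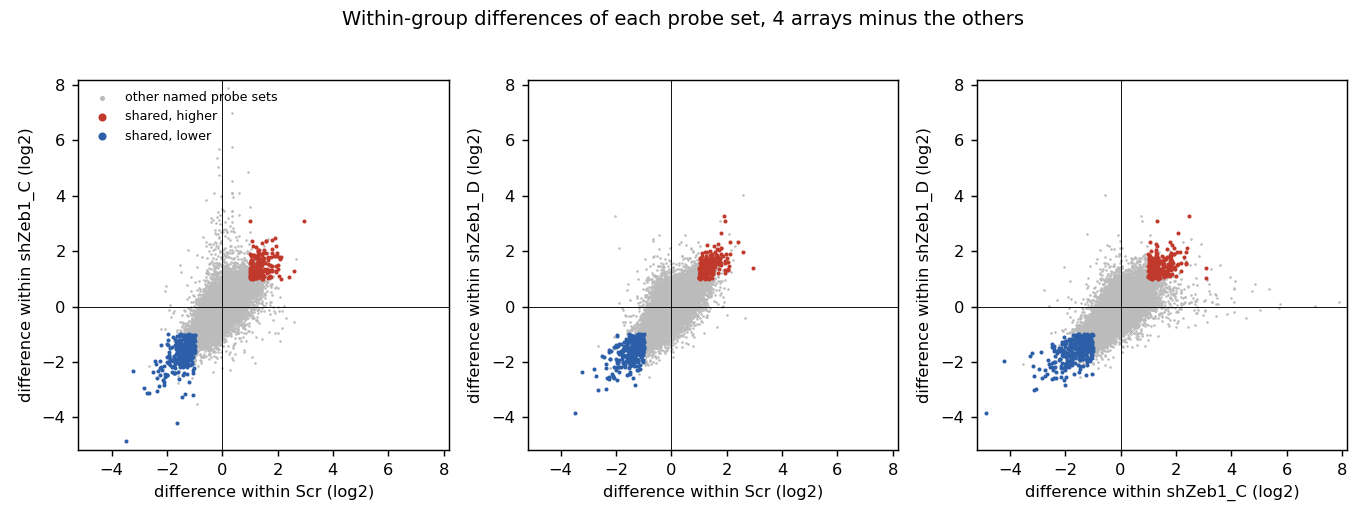
Within-group log2 differences (the 4 arrays minus the others of their group) of each named probe set, plotted for 1 group against another in 3 panels, with the 193 genes higher in the 4 arrays in red, the 329 lower ones in blue and all others in grey. The cloud runs along the rising diagonal in each panel, with Pearson's r of 0.59, 0.63 and 0.63, and a grey arm of probe sets stands high within shZeb1_C alone.

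Array shZeb1_C 12 stood apart in a further way that the other 3 arrays did not share. In 59 probe sets it lay at least 2 above all 8 other arrays, a gap found for 0 probe sets in Scr 8, 2 in shZeb1_D 14 and 2 in shZeb1_D 15. Sparc, a secreted matrix protein, stood at 13.73 on shZeb1_C 12 and between 5.71 and 6.68 on the others. Fn1, fibronectin, lay at 10.71 there and between 4.70 and 5.23 elsewhere. Timp2, a metalloproteinase inhibitor, lay at 11.16 against 5.18 to 6.05. Acta2, smooth muscle actin, stood at 8.91 against 4.91 to 5.96. Bgn, Pcolce, Thbs1, Thbs2, Mgp and Ogn, all of the extracellular matrix, were also among the 59. So were genes of NK cells and other lymphocytes, among them Gzmc, Nkg7, Xcl1, Klra7 and Cd244a. Nkg7 stood at 12.65 on shZeb1_C 12, at 9.11 and 9.79 on shZeb1_C 10 and 11, and between 4.32 and 6.12 elsewhere. Of the 4 stromal markers Col1a1 lay above the median level, at 8.86 on shZeb1_C 12 against 7.49 to 8.47 elsewhere, while Col1a2 stood at 6.80 there and Col3a1 at 5.74. The summed signal of the 4 was 9.43 on shZeb1_C 12, the highest of the 4 arrays, and 8.47 to 9.01 on the other 5. On shZeb1_D 15 the immediate early gene Fosb stood at 13.56 against 7.38 to 8.38 on the other 8. None of the probe sets with such a gap shares the deviation, where 2.67% of all named probe sets do. The rule needs the higher side of every group above 7.07, which dim ones such as Sparc and Fn1 could not meet. This absence therefore does not set the pattern of shZeb1_C 12 apart from the shared deviation. The part of other cells in the shared differences was not tested. Every shZeb1_C difference rests on array 12, and the count of genes past the threshold in Scr and shZeb1_D alone, without it, was 737.

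The 522 genes separated the arrays of each group without overlap, which the rule favours. For 472 of them the 4 arrays also lay beyond all 5 others regardless of group, as did 3317 of all named probe sets (16.9%). The median difference of the higher genes was 1.30 in Scr, 1.33 in shZeb1_C and 1.41 in shZeb1_D, and that of the lower genes was -1.32, -1.51 and -1.51. The smallest difference reached 1.5 for 17 higher and 69 lower genes, and 2 for 0 higher and 16 lower genes. The lower side had the more members in each of these counts.

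The 2 hairpin D arrays in the set deviated unequally for the higher genes and nearly alike for the lower ones. Above shZeb1_D 13, the higher genes stood by a median of 1.65 on array 14 and 1.26 on array 15, and 148 of the 193 were farther from it on array 14. The lower genes lay at -1.56 and -1.51, with 174 of 329 farther on array 14.

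The largest shared difference was that of Jund, which encodes JunD, a subunit of the AP-1 transcription factor. Jund stood at 13.34, 9.47 and 12.56 on Scr 7, 8 and 9, at 13.42, 12.59 and 8.14 on shZeb1_C 10, 11 and 12, and at 13.16, 8.78 and 9.86 on shZeb1_D 13, 14 and 15. The 5 other arrays spanned 12.56 to 13.42 and the 4 arrays 8.14 to 9.86, so the sets did not overlap. The 3 differences were -3.48, -4.87 and -3.84, a mean of -4.06 ± 0.72 (SD over the 3 groups), or 16.7-fold. JunD's gene consists of a single exon, and no other member of the list of 41 immediate early genes shared the deviation.

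Next came enzymes and secretory pathway genes. Lypla2, a thioesterase that removes palmitate from proteins, stood at 13.38, 11.10 and 14.10 in Scr, at 13.79, 13.73 and 10.63 in shZeb1_C, and at 13.13, 10.26 and 9.94 in shZeb1_D. Its mean difference was -2.93 ± 0.26. Preb, which starts the coating of vesicles leaving the endoplasmic reticulum, read 13.03, 10.53 and 13.45, then 13.07, 12.95 and 9.89, then 13.97, 11.58 and 11.36 (mean -2.78 ± 0.32). For both genes the 4 arrays again lay below all 5 others. Mogs (-2.67 ± 0.36) and Ganab (-2.41 ± 0.25), the glucosidases that trim sugar chains on new glycoproteins, were lower together.

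The other 10 leading lower genes had mean differences from -2.80 to -2.22. Sdha, the catalytic subunit of succinate dehydrogenase, read 10.67, 8.45 and 10.94 in Scr, 10.55, 10.90 and 7.66 in shZeb1_C, and 10.66, 7.41 and 7.93 in shZeb1_D (mean -2.80 ± 0.39). Its range was 10.55 to 10.94 on the 5 arrays and 7.41 to 8.45 on the 4. Tnk2, a non-receptor tyrosine kinase, had a mean of -2.64 ± 0.51 and Abcb6, a porphyrin transporter, one of -2.41 ± 0.15. Pgd, of the pentose phosphate pathway (-2.26 ± 0.24), and Farsa, a subunit of phenylalanyl-tRNA synthetase (-2.35 ± 0.25), followed, with Tmem229b, Ilrun, Shkbp1, Smg5 and Elp2.

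On the higher side the leading gene was Cstdc4, of the stefin A family of cathepsin inhibitors. It stood at 10.56, 13.10 and 11.71 on Scr 7, 8 and 9, at 11.44, 11.28 and 13.28 on shZeb1_C 10, 11 and 12, and at 10.27, 12.69 and 11.65 on shZeb1_D 13, 14 and 15. Within each group the 4-array side was higher, while shZeb1_D 15 lay just under Scr 9. The mean difference was 1.93 ± 0.03, or 3.81-fold. Csta2, a close paralogue whose probes could share target RNA with it, had 1.95 ± 0.18, so these are not independent members.

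Timm10b, a chaperone of the mitochondrial intermembrane space, had the largest mean on this side. It read 11.92, 14.09 and 12.47 in Scr, 11.62, 11.74 and 14.17 in shZeb1_C, and 10.61, 14.14 and 13.60 in shZeb1_D, with a mean difference of 2.55 ± 0.68. The 4 arrays lay at 13.60 or above and the 5 at 12.47 or below. Hint2, a mitochondrial nucleotide hydrolase, had 1.85 ± 0.02, S100a1, a calcium-binding protein, 2.08 ± 0.27, and Cox7a1, a subunit of cytochrome c oxidase, 1.62 ± 0.10.

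Several other leading higher genes encode small proteins that assemble or process larger machines. Psmg2, an assembly chaperone of the proteasome, had a mean difference of 1.80 ± 0.24, Rpp21, a subunit of ribonuclease P, 1.76 ± 0.10, and Srp19, of the signal recognition particle, 1.57 ± 0.08. Rbmx2, a splicing factor, read 12.89, 14.74 and 13.09 in Scr, 12.93, 12.95 and 14.73 in shZeb1_C, and 13.06, 14.71 and 14.95 in shZeb1_D. Its 5 lower readings spanned 12.89 to 13.09 and its 4 higher ones 14.71 to 14.95, so the arrays fell into 2 levels with little spread in each. Nfkbia, the inhibitor of NF-kB (1.69 ± 0.10), and Rb1cc1, which starts autophagy (1.68 ± 0.30), were higher too, with Insl6, Zcchc10 and Cwf19l2.

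**Figure D2:**
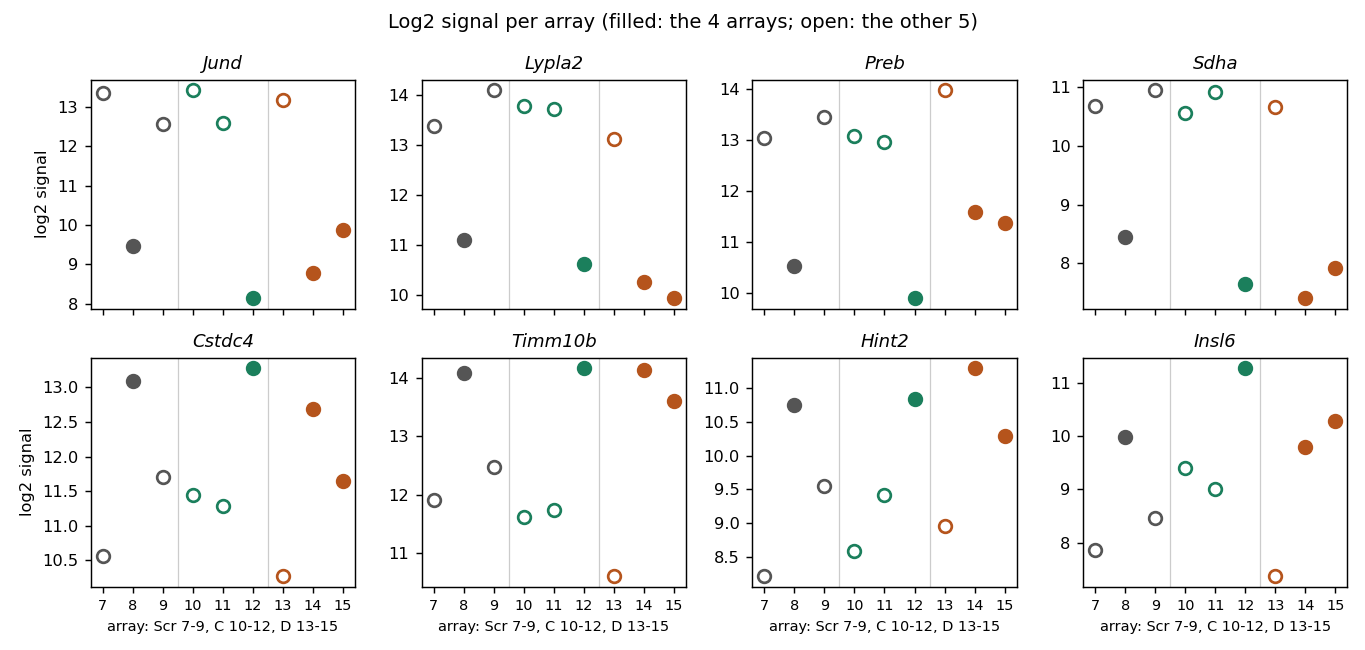
Log2 signal on each of the 9 arrays for the 4 leading lower genes (top) and the 4 leading higher genes (bottom), with arrays 7 to 9 from Scr, 10 to 12 from shZeb1_C and 13 to 15 from shZeb1_D. Filled circles are the 4 arrays, open circles the other 5, and each panel has its own vertical range; for Jund the filled circles lie at 8.14 to 9.86 and the open ones at 12.56 to 13.42.

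The promoters of 2 leading lower and 2 leading higher genes are shown because their base composition differed within each direction. The sequences are the 250 bases before the annotated start, credited to RefSeq on GRCm38.p6, given 5′ to 3′ on the gene's strand, with capitals marking the letters GGGCGG of the Sp1 motif. The windows lie at chr8:70697489-70697738 on the plus strand (Jund), chr4:135972595-135972844 on the minus strand (Lypla2), chr16:36183962-36184211 on the plus strand (Cstdc4) and chr7:105640195-105640444 on the plus strand (Timm10b).
Jund: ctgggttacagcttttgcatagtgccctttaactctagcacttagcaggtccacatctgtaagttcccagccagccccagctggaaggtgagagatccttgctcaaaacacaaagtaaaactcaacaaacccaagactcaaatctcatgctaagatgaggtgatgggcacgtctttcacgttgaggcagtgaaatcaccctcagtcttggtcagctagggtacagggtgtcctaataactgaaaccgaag
Lypla2: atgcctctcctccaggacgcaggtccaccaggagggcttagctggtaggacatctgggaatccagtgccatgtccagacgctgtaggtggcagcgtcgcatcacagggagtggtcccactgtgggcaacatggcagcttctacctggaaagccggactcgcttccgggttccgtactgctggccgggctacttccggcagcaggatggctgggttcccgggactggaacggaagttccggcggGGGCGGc
Cstdc4: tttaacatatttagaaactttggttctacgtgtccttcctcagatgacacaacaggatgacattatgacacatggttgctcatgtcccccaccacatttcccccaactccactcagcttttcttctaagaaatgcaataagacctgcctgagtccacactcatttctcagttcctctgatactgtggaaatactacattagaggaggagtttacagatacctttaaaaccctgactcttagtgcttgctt
Timm10b: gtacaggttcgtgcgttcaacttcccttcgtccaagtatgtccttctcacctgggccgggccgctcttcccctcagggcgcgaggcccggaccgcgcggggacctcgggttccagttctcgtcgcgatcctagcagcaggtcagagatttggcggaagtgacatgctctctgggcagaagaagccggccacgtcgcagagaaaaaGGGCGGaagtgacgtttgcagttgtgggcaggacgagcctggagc
Jund and Cstdc4, the leaders of opposite directions, had GC contents of 47.6% and 41.6% with 3 and 1 CG dinucleotides. Lypla2 and Timm10b had 64% and 62.4%, with 15 and 22.

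Over all genes, composition and size moved with the deviation by small amounts. The 9865 named probe sets above the median level with a RefSeq gene length were put into 5 length classes of 1973 each. From the shortest class (median 3.83 kb) to the longest (median 103 kb), the median of the mean difference was 0.15, 0.06, -0.03, -0.11 and -0.11. In the shortest class 2.89% of genes shared the deviation as higher and 1.67% as lower, against 1.17% and 2.53% in the longest. The median gene length was 14.9 kb for the higher genes, 23.9 kb for the lower ones and 21.9 kb for all above the median level. By promoter GC content the class medians ran 0.09, 0.04, -0.00, -0.09 and -0.11 from 47.3% to 72.3% GC. By level they were 0.02, -0.09, -0.06, -0.04 and 0.14, with no single direction. Spearman's rho with the mean difference was -0.18 for length, -0.14 for promoter GC and 0.06 for level across 8115 genes, which are not independent. Whether gene length, base composition or RNA quality had a part in the deviation was not tested.

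**Figure D3:**
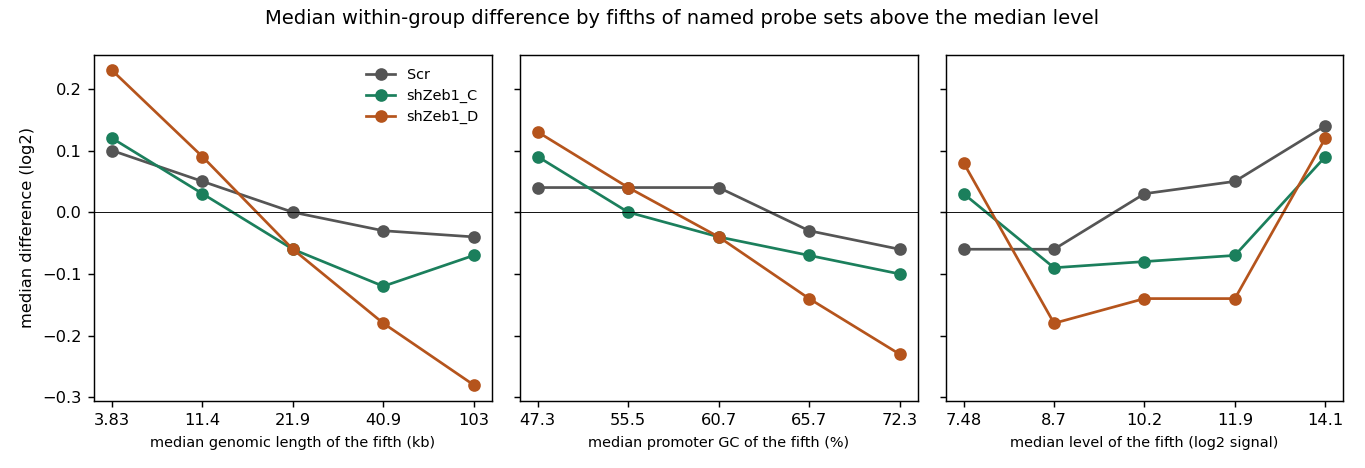
Median within-group difference (log2) in each of the 3 groups, for 5 classes of named probe sets above the median level by genomic length (left), promoter GC content (middle) and level (right), with the class median on the horizontal axis. The medians descend with length and with GC content in all 3 groups apart from small steps, most in shZeb1_D, where they run from 0.23 to -0.28 by length.

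Short motifs were counted on both strands of the 300 bases around the start, 250 before and 50 after. The letters GGGCGG (Sp1) occurred in 72.7% of the promoters of 278 lower genes and in 56.2% of those of 160 higher genes. The share was 61.7% among 8093 genes above the median level and 35.9% of all 27025 promoters. CCGGAAG (ETS) occurred in 25.2%, 27.5%, 19.4% and 9.12% of these sets, and TTCCCGC (E2F) in 11.9%, 8.12%, 8.67% and 4.66%. CACCTG, the box bound by ZEB factors, occurred in 17.3%, 13.8%, 17.2% and 20%. These motifs do not contain one another. Of the 12 motifs counted, Sp1 had the widest gap between the directions.

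The functions that carried the deviation were sought in 68 gene lists, which hold 117 of the 522 genes. The other 405, 158 higher and 247 lower, belong to no list. Of 67 lists with at least 8 measured members, 31 had medians on the same side of the all-gene median in all 3 groups, 11 above and 20 below. The all-gene medians were -0.03 in Scr, 0.04 in shZeb1_C and 0.07 in shZeb1_D. All 3 differences were above 0 for 26.4% of named probe sets and below 0 for 22.6%, and for 31.7% and 32.8% of those above the median level. Most of the lists described consist mainly of such genes, of which 1.96% shared the deviation as higher and 3.32% as lower. The 6 lists in each direction with the largest smallest departure are described next.

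Mitochondrial ribosomal protein genes stood highest. The 76 measured members had medians of 0.51 in Scr, 0.49 in shZeb1_C and 0.71 in shZeb1_D. All 3 differences were above 0 for 59 and below 0 for 3. Of the 48 large-subunit (Mrpl) genes 40 were above 0 in every group, and of the 28 small-subunit (Mrps) genes 19, with median means of 0.61 and 0.56.

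In this list 5 genes shared the deviation as higher and 0 as lower, all from the large subunit. Mrpl42 read 13.73, 15.19 and 14.02 in Scr, 13.42, 13.04 and 14.77 in shZeb1_C, and 13.62, 15.17 and 14.97 in shZeb1_D, a mean difference of 1.43 ± 0.11. Its 4 arrays lay at 14.77 to 15.19 and its 5 at 13.04 to 14.02. Mrpl32 had 1.52 ± 0.25, Mrpl41 1.27 ± 0.14 and Mrpl22 1.20 ± 0.13. Within the 3 shortest length classes the list stood at 0.49, 0.69 and 0.54, where all genes of those classes stood at 0.15, 0.06 and -0.03.

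The respiratory chain moved the same way, with medians of 0.33, 0.22 and 0.42 over 99 measured members. All 3 differences were above 0 for 68 members and below 0 for 5. Subunits of complex I (Nduf, 38 genes) had a median mean difference of 0.38 and its assembly factors (Ndufaf, 8 genes) 0.78. The ATP synthase genes (17) stood at 0.34, the cytochrome c oxidase genes (18) at 0.20, and complex III with cytochrome c1 (9) at 0.16.

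Of the chain's genes, 7 shared the deviation as higher. Ndufa7, a complex I subunit, read 11.30, 13.38 and 12.08 in Scr, 11.44, 11.05 and 12.58 in shZeb1_C, and 11.28, 13.46 and 12.66 in shZeb1_D (mean 1.60 ± 0.24). Sdhaf4, an assembly factor of succinate dehydrogenase, had 1.37 ± 0.21. The catalytic subunit itself, Sdha, was the 1 member that shared the deviation as lower. Sdha and this assembly factor thus moved in opposite directions. Of the 4 subunits of succinate dehydrogenase 3 were above 0 in every group, without sharing the deviation, and Sdha was below.

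The other 4 lists on the higher side moved less. The 40 targets of NRF2, the regulator of the response to oxidants, had medians of 0.13, 0.17 and 0.38. The microsomal glutathione transferases Mgst2 (1.79 ± 0.47) and Mgst3 (1.52 ± 0.43) and the peroxiredoxin Prdx4 (1.12 ± 0.12) shared the deviation as higher, and Pgd as lower. The 43 proteasome genes had medians of 0.10, 0.14 and 0.22, and 0 of them passed the threshold. Their median mean difference of 0.09 became 0.04 with array medians subtracted, 0.14 without array 7 and 0.15 without array 10. The largest were Psmc3ip (0.98 ± 0.04), which the list's prefix takes in although it is a recombination cofactor, and Psmc6, a subunit of the proteasome's base (0.87 ± 0.13).

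The 86 interferon-stimulated genes had medians of 0.05, 0.38 and 0.17, so within Scr the list lay near all genes, and its median mean difference of 0.21 became 0.12 without shZeb1_C 12. Of them Ifi35 (1.34 ± 0.28) and Mndal (1.51 ± 0.07), a DNA sensor of the interferon-inducible Ifi200 family, shared the deviation. The 22 genes of arginine, tryptophan and adenosine metabolism had medians of 0.07, 0.15 and 0.16, with Adk, adenosine kinase, at 0.62 ± 0.18 and Oat, ornithine aminotransferase, at 0.59 ± 0.16. The arginine transporter Slc7a1 shared the deviation as lower (-1.45 ± 0.28). The median mean difference of this list was 0.06, and 0.01 once array medians were subtracted, 0.02 without array 12 and 0.03 without array 11.

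On the lower side nuclear pore and transport genes stood lowest in the ranking. The 45 measured members had medians of -0.48, -0.47 and -0.62, with all 3 differences below 0 for 29 and above 0 for 7. The 21 nucleoporins (Nup) had a median mean difference of -0.50, the 13 importins and karyopherins -0.71, and the 6 exportins -0.28. Those in length classes 3 and 4 stood at -0.50 and -0.97, where all genes of these classes stood at -0.03 and -0.11.

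Rangap1, which drives the Ran cycle behind nuclear transport, read 9.55, 8.40 and 10.30 in Scr, 9.65, 9.27 and 7.29 in shZeb1_C, and 9.26, 7.37 and 6.69 in shZeb1_D (mean -1.97 ± 0.39). The 4 arrays lay at 8.40 or below and the 5 at 9.26 or above. Ipo5, an importin (-1.75 ± 0.35), Nup210 (-1.52 ± 0.21) and Nup93 (-1.45 ± 0.14) shared the deviation, as did Nup133, Nup160 and Nup188. No member shared it as higher.

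The 67 ribosome biogenesis genes had medians of -0.29, -0.56 and -0.26, with all 3 differences below 0 for 38 and above 0 for 15, and 5 shared the deviation as lower. They were Rrp1 (-1.33 ± 0.10), Noc2l (-1.25 ± 0.15) and Tsr1 (-1.36 ± 0.29), which process or assemble ribosomal subunits, Polr1a (-1.52 ± 0.38), the largest subunit of RNA polymerase I, and Bysl. The 64 cytosolic ribosomal protein genes differed from this list, with medians of 0.12, -0.01 and 0.10 and Rpl39 as the 1 member sharing the deviation, as higher.

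The 39 Myc targets and genes of polyamine or nucleotide synthesis had medians of -0.19, -0.56 and -0.28, with 21 below 0 in every group and 4 above. Cad, which starts pyrimidine synthesis, read 11.06, 9.30 and 10.99 in Scr, 10.35, 9.91 and 7.98 in shZeb1_C, and 11.07, 9.14 and 8.71 in shZeb1_D (mean -2.01 ± 0.24). Impdh1, of guanine nucleotide synthesis (-1.79 ± 0.22), Mthfd1, of folate metabolism (-1.41 ± 0.25), and Prmt5, an arginine methyltransferase (-1.08 ± 0.04), were also lower. Without shZeb1_C 12 the median mean difference of this list moved from -0.36 to -0.15 and that of ribosome biogenesis from -0.41 to -0.22.

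Of the 12 lists, glycolysis had medians that differed most between the groups. The 28 measured genes had medians of -0.20 in Scr, -0.85 in shZeb1_C and -0.61 in shZeb1_D. Without shZeb1_C 12 the median mean difference moved from -0.54 to -0.30, and without Scr 8 to -0.81. Hk2, hexokinase 2, which commits glucose to the pathway, read 12.55, 10.83 and 12.41 in Scr, 12.09, 11.64 and 7.65 in shZeb1_C, and 12.28, 9.25 and 11.39 in shZeb1_D. Its differences were -1.65, -4.21 and -1.96, and shZeb1_D 15 lay nearer to shZeb1_D 13 than to shZeb1_D 14. Pkm, pyruvate kinase, had differences of -1.26, -2.44 and -2.29. Pfkp, phosphofructokinase (-1.78 ± 0.45), Slc2a3, the glucose transporter GLUT3 (-1.97 ± 1.11), and Pfkl also shared the deviation.

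Chromatin regulators (56 genes) had medians of -0.21, -0.36 and -0.60. The acetyltransferases Kat2a (-2.12 ± 0.25) and Kat7 (-1.31 ± 0.32) and the demethylases Kdm3b (-1.11 ± 0.03) and Kdm5c (-1.38 ± 0.35) shared the deviation, all as lower. The list's genes are long, with a median of 66.8 kb, and its 31 members in the longest class stood at -0.34 where all genes of that class stood at -0.11.

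The 57 genes of DNA replication and S phase had medians of -0.17, -0.21 and -0.26, with all 3 differences below 0 for 30 and above 0 for 16. The median mean difference of -0.24 became -0.14 without array 13. The 21 members in length class 2 stood at 0.13, opposite to the list, and the 16 in class 3 at -0.47. All 6 genes of the Mcm2 to Mcm7 helicase were below 0 in every group, with a median mean difference of -0.75. Mcm2 read 15.55, 14.28 and 15.74 in Scr, 15.28, 15.23 and 13.51 in shZeb1_C, and 15.08, 13.90 and 13.88 in shZeb1_D (mean -1.43 ± 0.28), and Mcm4 had -1.02 ± 0.02. Cdc45, which loads onto the helicase (-1.20 ± 0.06), and Fen1, the flap endonuclease (-1.31 ± 0.22), shared the deviation. The 53 mitosis genes did not keep 1 direction, with medians of 0.15, 0.04 and -0.17, and Pttg1 and Ckap2l higher but Bub1b and Racgap1 lower.

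**Figure D4:**
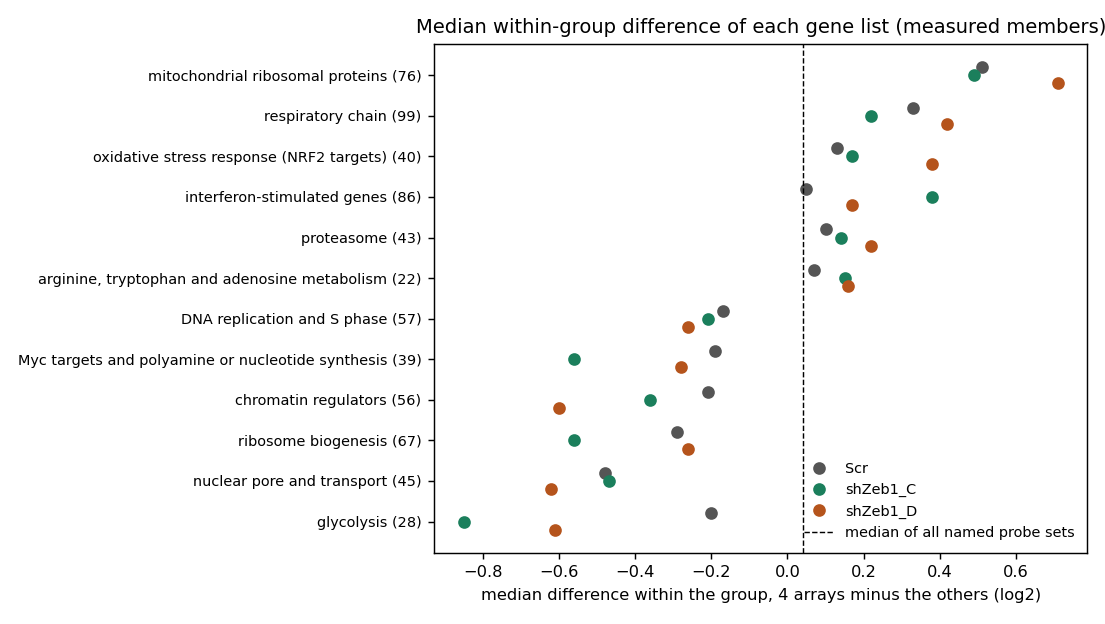
Median within-group difference (log2, the 4 arrays minus the others of their group) of the 12 gene lists described, with the number of measured members in parentheses, 1 point for each group, and a dashed line at 0.04, the median mean difference of all named probe sets. Mitochondrial ribosomal proteins lie at 0.49 to 0.71 and nuclear pore genes at -0.62 to -0.47 in the 3 groups, and glycolysis spreads from -0.85 to -0.20.

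Some smaller groups, noticed after their values had been seen, took only 1 direction among the genes sharing the deviation. The spliceosome list (71 genes, medians 0.07, 0.03 and -0.10) held 6 genes sharing the deviation, Prpf8, Sf3b3, Sf3b4, U2af2, Srsf4 and Hnrnpf, all lower, although 30 of its members were above 0 in every group and 27 below. Among 37 ATF4 targets, which answer amino acid shortage, Phgdh, Aldh18a1, Sesn2, Slc7a1 and Slc7a5 were lower, and 15 were below 0 in every group and 5 above. Of 62 genes of actin and membrane remodelling (medians -0.18, -0.07 and -0.25), 4 shared the deviation as lower, the coronins Coro1a, Coro1b and Coro1c and talin Tln1, and 25 were below 0 in every group and 9 above. These picks stand beside the 3.32% of all genes above the median level that were lower by the rule. All 10 measured histone H3 genes were below 0 in every group, with a median mean difference of -0.74, but they are nearly identical copies whose probes cannot be told apart, and the 15 H2B genes stood at 0.20.

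No single cell type marker shared the deviation, but some summed levels differed. The T cell genes Cd3d, Cd3e, Cd3g and Cd4 lay above the median level, as did the leukaemia genes Ptprc, Myb and Mpo. Of the markers of 12 cell types 0 shared the deviation, where 2.67% of all named probe sets did. Most of these markers lay below the median level, so a count of 0 stands near that share and says nothing of cell makeup. The summed signal of the 8 leukaemia and myeloid precursor markers was 14.49 to 14.86 on the 4 arrays and 14.99 to 15.37 on the 5, without overlap. That of the 5 measured T cell markers was 15.89 to 16.13 and 16.05 to 16.51. That of the 6 NK cell markers was 10.55 to 15.02 on the 4 and 10.98 to 13.87 on the 5, with its highest value on shZeb1_C 12. Neutrophil, B cell and endothelial markers had no member above the median level. The part of a change in cell makeup in the deviation was not tested, and in bulk RNA fewer cells of a type and less RNA per cell cannot be told apart.

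Zeb1, the target of both hairpins, stood at 10.52, 10.29 and 10.56 in Scr, at 10.41, 10.01 and 10.34 in shZeb1_C, and at 9.56, 9.26 and 9.40 in shZeb1_D, so every hairpin D array was below every other. With hairpin C it overlapped Scr and did not pass the test (log2 fold change -0.20 ± 0.16 (SE), limma adjusted p = 0.895). Its within-group differences were -0.25, 0.13 and -0.23. Sgpp1 is a phosphatase of sphingosine-1-phosphate. It read 11.87, 10.64 and 11.38 in Scr, 5.82, 4.56 and 6.09 in shZeb1_C, and 12.01, 10.36 and 10.81 in shZeb1_D. All shZeb1_C arrays thus lay below all others. Scr and shZeb1_D overlapped, so this gene cannot tell an array of Scr from one of shZeb1_D. Over all probe sets Scr 8 correlated slightly better with shZeb1_D 14 (r = 0.9866) than with any Scr array (0.9863). Array shZeb1_C 12 also did so (0.9834 with shZeb1_D 14 and 0.9795 within its group), and shZeb1_D 13 was closer to Scr 7 (0.9885) than to its own group (0.9798).

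Hairpin D holds 2 of the 4 arrays and the other groups 1 each. Between shZeb1_D and Scr the median log2 fold change was 0.38 for the 193 higher genes and -0.78 for the 329 lower ones, against 0.04 for all. With the array set as a term in the model these became -0.08 and -0.25. The term takes out part of the very difference for which the genes were chosen, so a shift of this kind follows by arithmetic and supports nothing. Between shZeb1_C and Scr, which hold the same number of such arrays, they were -0.01 and -0.13 with and without the term. Between the hairpins the medians of 0.38 and -0.57 became -0.08 and -0.09.

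**Figure D5:**
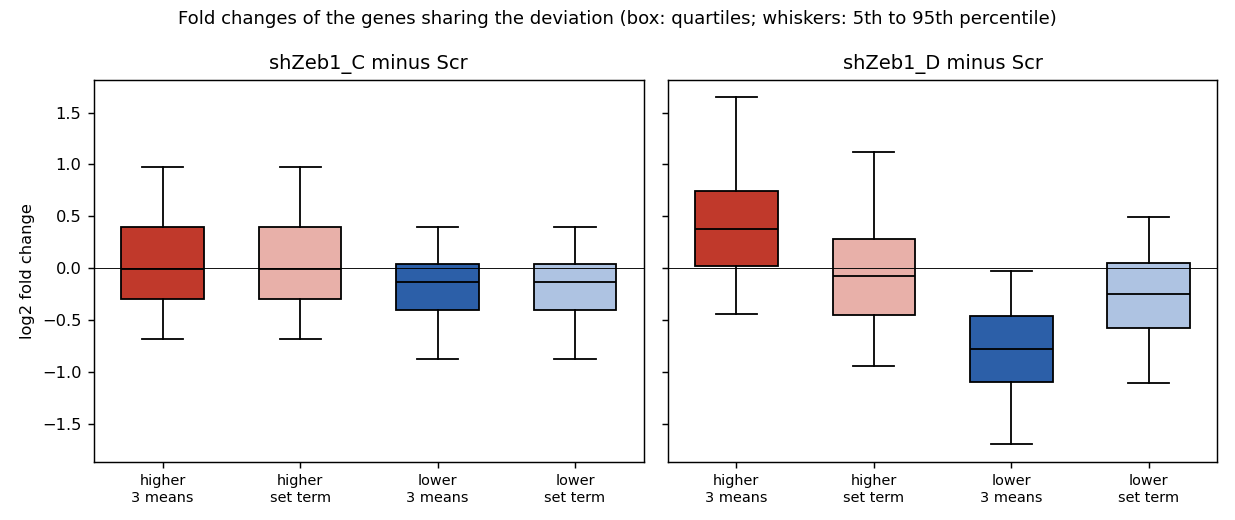
Log2 fold changes against Scr of the genes sharing the deviation, for hairpin C (left) and hairpin D (right), from the model with 3 group means and from the model with an added array-set term. Boxes span the quartiles with the median as a line, and whiskers reach from the 5th to the 95th percentile; for hairpin D the medians lie at 0.38 and -0.78 without the term and at -0.08 and -0.25 with it.

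Few genes that share the deviation passed the test between constructs. Limma called 185 of 19572 named probe sets for shZeb1_C against Scr (0.945%), 165 for shZeb1_D against Scr (0.843%) and 166 between the hairpins (0.848%). Those called as higher made up 0.659%, 0.399% and 0.307%. The counts were smaller by over 1.5 times without single arrays, for shZeb1_C to 104, 84, 43, 103, 92 and 117 without array 7, 8, 9, 10, 11 or 15. For shZeb1_D they were 58, 87, 14, 93, 103, 80 and 17 without array 7, 8, 9, 10, 11, 14 or 15, and between the hairpins 62, 84 and 49 without array 10, 11 or 15. Among the 522 genes it called 1, 1 and 0, with both calls higher. At an unadjusted p under 0.05 in the same fit, 7, 46 and 24 of the 522 passed (1.34%, 8.81% and 4.6%), where 8.77%, 13.6% and 11.7% of all probe sets did. A gene that differs within every group has a large residual spread, which lowers its chance of a call by construction.

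The 1 called gene was Mndal. It read 8.65, 10.32 and 9.11 in Scr, 12.67, 12.32 and 14.07 in shZeb1_C, and 11.65, 13.39 and 12.95 in shZeb1_D, so all 6 hairpin arrays lay above all Scr arrays. It rose by 3.66 ± 0.60 (SE) with hairpin C and by 3.30 ± 0.60 with hairpin D (limma adjusted p = 0.0281 and 0.0463). Within the groups it differed by 1.44, 1.57 and 1.52. The call with hairpin C was lost without array 7, 9, 10, 11, 12 or 15, and that with hairpin D without array 7, 9, 10, 11, 14 or 15. Genes of the Ifi200 family are close copies, so its probes may read relatives too.

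With the array set as a term, limma called 49, 63 and 43 of the 522 genes (9.39%, 12.1% and 8.24%), where it called 4.47%, 3.94% and 3.58% of all probe sets. The sets were taken from the same values, so the residual spread of these genes shrinks by construction and the counts are no independent support. Of the lists described, interferon-stimulated genes held 13 calls higher and 0 lower for shZeb1_C against Scr, and 5 higher and 1 lower for shZeb1_D, without the term. Among mitochondrial ribosomal proteins 0 were higher and 1 lower for shZeb1_D. Glycolysis, respiratory chain, proteasome and Myc targets held 0 calls in any comparison. Chromatin regulators held 2 lower for shZeb1_D, and ribosome biogenesis and arginine, tryptophan and adenosine metabolism 1 lower with each hairpin. NRF2 targets held 1 lower for shZeb1_D. Between the hairpins interferon-stimulated genes held 4 lower, and NRF2 targets, nuclear pore and DNA replication 1 lower each. Without the term, 0.945%, 0.843% and 0.848% of all probe sets were called. Counts of 0 in these lists stand near those shares, and counts of 1 are too small to set against them.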

How the data were processed

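Expression was measured on 9 arrays, 3 for each construct. The authors deposited linear RMA signals written without their decimal point, a unit of other kind that cannot be used as it stands. Per the submitters' processing notes, the tools were RMA and Transcriptome Analysis Console; versions are not listed. The genome build was not given in the sources used here. Each of the 199854 cells was returned to the power of 10 that makes its log2 value a multiple of 0.01, within 1e-06 steps. The platform annotation paired 19572 of 22206 probe sets with 1 gene symbol and 2634 with none. Array medians lay between 6.97 and 7.16, Pearson's r was 0.9777 to 0.9949 within groups, and the number of arrays limits the precision. Zeb2 was not analysed here.

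Members, gene lists and thresholds were chosen with earlier results of these data known. Groups were compared on the log2 scale by limma (version 3.58.1, R 4.3.3). Group means were fitted to all 9 arrays at once, p-values were adjusted by Benjamini-Hochberg over all named probe sets, and calls needed an adjusted p below 0.05. The steps were tested on simulated data. Named genes were Zeb1, the 15 genes in each direction with the largest smallest-of-3 difference among those sharing the deviation, and up to 4 members of each of the 12 lists described, by the same rank. Predicted genes, small RNA genes and olfactory or vomeronasal receptors went unnamed. Other genes named were chosen after their values were seen. Genes were placed and measured by the RefSeq tables of GRCm38.p6. Alternatives were quantile normalization, subtraction of array medians, thresholds of 0.5 and 1.5, no filter on dim probe sets, 1 probe set per gene, a variance trend, array weights, the array set as a covariate, and each array left out in turn.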

Additional observations from a re-analysis of the deposited data

Results flagged for a closer look

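In some genes the arrays of one group moved opposite to those of another, with both differences at least 1. In both of these groups the arrays were fully separated, though not always in the remaining group. The higher side of every group lay above the median level. These differences between groups were not tested, and every shZeb1_C value rests on array 12. Arg1, arginase 1, whose loss of arginine restrains T cells, read 10.65, 12.15 and 11.25 in Scr, 9.19, 9.86 and 7.49 in shZeb1_C, and 7.69, 9.77 and 8.42 in shZeb1_D. Its within-group difference was 1.20 in Scr, -2.04 in shZeb1_C and 1.41 in shZeb1_D. The difference in Scr minus that in shZeb1_C was thus 3.24, and that in shZeb1_C minus that in shZeb1_D was -3.44. Such values compare within-group differences and not the levels of the groups. Lst1, a leukocyte membrane protein, had the same pattern, with 2.08, -1.23 and 2.62 (3.30 and -3.85), as did Cox6a2, a subunit of cytochrome c oxidase of muscle, with 1.45, -1.19 and 1.04 (2.63 and -2.23).

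The interferon-induced membrane proteins Ifitm1 and Ifitm2 were lower on Scr 8 and higher on shZeb1_D 14 and 15. The within-group difference in Scr minus that in shZeb1_D was -5.31 for Ifitm1, from -2.03 and 3.28. It was -3.99 for Ifitm2, from -1.90 and 2.10. Ifitm1 read 7.32, 12.93 and 8.27 on shZeb1_D 13, 14 and 15, and Ifitm2 read 7.48, 11.03 and 8.12. Array 14 thus carries most of the shZeb1_D difference of both genes. For Mup19 the difference in Scr minus that in shZeb1_D was -2.53.

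Between Scr and shZeb1_C, the difference in Scr minus that in shZeb1_C was -3.01 for Klrd1, a receptor of NK cells, and -2.17 for Cd226, an activating receptor of lymphocytes. It was -3.28 for Kcnmb1, -2.77 for Speer2 and 2.32 for Ciart, a regulator of the circadian clock. Between the hairpins, the difference in shZeb1_C minus that in shZeb1_D was 2.42 for Cd28, the costimulatory receptor of T cells. It was -2.55 for Lmo7 and 2.11 for Sgk1, a kinase.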

How the results depend on the processing

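No paired analysis was possible because the groups share no replicate numbers. With a threshold of 0.5 the deviation was shared by 2122 genes (908 higher, 1214 lower), and with 1.5 by 86 (17 and 69). Leaving out each array in turn gave 483 to 882 genes, 140 to 320 higher and 279 to 590 lower. Without array 8, 12 or 13 a group gives no difference and the remaining groups decide alone, which widens the count to 882, 737 and 662. Without array 12, 320 genes were higher.

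Limma's counts moved more. For shZeb1_C against Scr they ran from 43 to 214 with an array left out, and were 875 with the array set as a covariate and 572 with array weights. For shZeb1_D against Scr they ran from 14 (without array 9) to 213 (without array 12), and were 772 and 1076. Between the hairpins they ran from 49 to 162, and were 700 and 833. Among the 522 genes the calls for shZeb1_C against Scr were 0 to 2 with an array left out, 49 with the covariate and 2 with weights. For shZeb1_D against Scr they were 0 to 2, 63 and 51, and 0 with array medians subtracted. Between the hairpins they were 0 with any array left out, 43 and 25. The covariate shrinks the residual spread by construction, and the cause of the other moves was not tested.

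Of 132 list values under other settings 122 moved by less than the spread over groups and 10 by more, and of 781 gene values 722 and 59. None of these list and gene values changed sign. Under quantile normalization and under subtraction of array medians, 468 of the 522 genes remained.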

Other observations

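Among the 2634 probe sets with no gene symbol, 49 (1.86%) met the same rule, 14 as higher and 35 as lower in the 4 arrays.

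Some gene families did not keep 1 direction. The 25 NK lectin-like receptors had median within-group differences of -0.04 in Scr, 0.80 in shZeb1_C and 0.19 in shZeb1_D, and 0 of them shared the deviation. The 8 GIMAP GTPases, which act in lymphocyte survival, had medians of 0.66, -0.18 and 0.38.

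Along the chromosomes, running medians over 51 neighbouring genes above the median level were taken in each group, and stretches were ranked by the smallest of the 3 where they shared a sign. The first was on chromosome 11 between Septin9 and Csnk1d, with -0.35 in Scr, -0.40 in shZeb1_C and -0.46 in shZeb1_D. The next was on chromosome 8 between Pard6a and Znrf1, with -0.33, -0.34 and -0.36. The 327 X-linked genes above the median level had a median mean difference of 0.14. By the rule 3.98% of them were higher and 2.45% lower, against 1.96% and 3.32% of all named probe sets above the median level.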
